A study of Mus musculus with 29 samples.

Results

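AMPA-type glutamate receptors and the transmembrane AMPA receptor regulatory proteins (TARPs) were examined as 1 family of 10 genes. The genes were found by their symbols among the 24062 genes of the RNA-seq table, and all 10 were present. They were the 4 receptor subunits Gria1, Gria2, Gria3 and Gria4, the 4 type I TARPs Cacng2, Cacng3, Cacng4 and Cacng8, and the 2 type II TARPs Cacng5 and Cacng7. A test was possible for 9 of them, since Cacng8 had too few reads to pass the filter on low values.

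The AMPA receptor is a tetramer of subunits and opens within a fraction of a millisecond of binding glutamate. The Gria2 subunit, once its RNA has been edited, makes the channel nearly impermeable to calcium. TARPs are membrane proteins related to the gamma subunit of the calcium channel. Those of type I carry AMPA receptors to the synapse, anchor them there and slow their closing. In the outer retina photoreceptors release glutamate in darkness. OFF bipolar cells sense it through ionotropic AMPA and kainate receptors and ON bipolar cells through the metabotropic receptor mGluR6, while photoreceptors lie on the sending side of the synapse.

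Levels were taken from 15 RNA-seq libraries of sorted mouse retinal cells, 3 from each of 5 populations, and chromatin accessibility from 12 ATAC-seq libraries. All bipolar cells (pan-BC) were sorted for RNA from Otx2-GFP+/- mice at postnatal day 44 to 47, in which GFP stands at the Otx2 locus. ON bipolar cells (ON-BC) and OFF bipolar cells (OFF-BC) came from Otx2-GFP+/-; Grm6-YFP+/+ mice at day 42 to 48, where YFP under the Grm6 promoter marks ON-BC, and OFF-BC were sorted a second time. Rods (Nrl-eGFP mice) and blue cones were sorted at day 56 for previous work by that laboratory. The blue cones were photoreceptors of Nrl-eGFP mice lacking Nrl (Nrl-/-), which take on the fate of S-opsin cones and served as a stand-in for them. Class, study and age of bipolar cells and photoreceptors therefore cannot be told apart. The rare BC5D type of ON cone bipolar cell, whose YFP is weak, fell outside both the ON-BC and the OFF-BC gate. The paper estimates that rod bipolar cells made up most of ON-BC, the rest being ON cone bipolar cells. OFF-BC are cone bipolar cells, so that ON against OFF and rod against cone bipolar cells cannot be fully told apart. The second sort, given to OFF-BC and not to ON-BC, cannot be told apart from that contrast either. Photoreceptors carry weak Otx2-GFP. For ATAC-seq, ON-BC and OFF-BC came from the same genotype at day 42 and 46, pan-BC from mice labelled Otx2-GFP+/-; Grm6-YFP+/+ at day 43 and 44, and rods and blue cones from the genotypes above at day 56. The study's own tables differ on the Grm6-YFP genotype of these pan-BC mice. Green cones, sorted from Opn1mw-GFP mice at day 56, gave the remaining 2 ATAC-seq libraries and entered the fit of regions as a population of their own. The labels do not say whether libraries of a population came from separate animals, so that p-values measure the spread between these libraries.

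The libraries held 12329548 to 26266746 counted RNA-seq reads. Grm6, the mGluR6 gene of ON cells, was 13260 to 13835 normalized counts in ON-BC and 64.9 to 593 in OFF-BC. Grik1, a kainate receptor subunit of OFF cells, was 382 to 568 in ON-BC and 28558 to 50164 in OFF-BC. OFF-BC replicate 3 stood apart. Its Isl1 level, an ON marker, was 1329 against 343 and 162 in the other OFF-BC libraries, and its Opn1sw level, the S-opsin of cones, was 55813 against 4477 and 4314. The RNA differences of members between ON-BC and OFF-BC are therefore also given without it. The 7 rod markers summed to 20202 to 25438 in ON-BC and to 3580 to 17891 in OFF-BC, and 6 of 7 were called higher in ON-BC. The other, Sag, had means of 3526 in ON-BC and 7364 in OFF-BC, with 16458 in OFF-BC replicate 3. Its mean in blue cones was 213034, so that it is not particular to rods here. All 6 cone markers were called higher in OFF-BC, with sums of 4063 to 4701 in ON-BC and 20853 to 90544 in OFF-BC. Among the 7 amacrine markers, which summed to 327 to 483 in ON-BC and 923 to 1113 in OFF-BC, 1 of the 5 tested was called, higher in OFF-BC. The largest part of these sums was Slc6a9, with means of 159 in ON-BC and 566 in OFF-BC. Its means in rods and blue cones were higher still, at 2271 and 1476, so that it is not particular to amacrine cells here. Gad1 alone had a lower mean in OFF-BC, 27.7 against 37.7 in ON-BC. In bulk libraries fewer cells of a type and less RNA per cell cannot be told apart. The part of these markers' cells in the results below was not tested.

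Gria2 and Gria1 were the abundant subunits in bipolar cells. The normalized counts of Gria2 were 6681, 6492 and 7566 in pan-BC, 5027, 5368 and 5890 in ON-BC, and 8828, 10480 and 8629 in OFF-BC. The 3 bipolar populations did not overlap, with OFF-BC highest and ON-BC lowest. Rods held 331, 267 and 265 and blue cones 84.2, 99.4 and 135, again without overlap. Gria1, the subunit best known from activity-dependent insertion of receptors at cortical synapses, measured 3274, 3239 and 3137 in pan-BC, 2638, 3162 and 3003 in ON-BC, and 3763, 3378 and 2262 in OFF-BC. These 3 ranges overlapped, and the lowest OFF-BC value was that of replicate 3. In photoreceptors Gria1 reached at most 30.3 in rods and 27.3 in blue cones, which overlapped.

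Gria4, a subunit with fast kinetics, followed the order of Gria2 among bipolar cells at a far lower count. It measured 369, 319 and 412 in pan-BC, 192, 267 and 222 in ON-BC and 653, 732 and 563 in OFF-BC, without overlap between any of the 3. Of the photoreceptor libraries, 2 held no Gria4 read and the highest value was 7.76. Gria3 was close to absent. It measured 18.1, 25.2 and 8.56 in pan-BC, 7.22, 5.88 and 7.18 in ON-BC and 6.71, 10.8 and 12.1 in OFF-BC, and not 1 read was counted in the 6 photoreceptor libraries.

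The type I TARPs Cacng2, Cacng3 and Cacng4 were ordered in the same way, with OFF-BC above pan-BC and pan-BC above ON-BC. Cacng2, which encodes stargazin, the founding TARP lost in the stargazer mouse, measured 144, 184 and 170 in OFF-BC, 56.4, 64.6 and 63.6 in pan-BC and 4.13, 13.7 and 10.3 in ON-BC. Cacng3 measured 249, 221 and 243 in OFF-BC, 102, 147 and 169 in pan-BC and 10.3, 41.2 and 12.3 in ON-BC. Cacng4 measured 50.3, 61.3 and 45.2 in OFF-BC, 21.3, 41.4 and 26.9 in pan-BC and 5.16, 6.86 and 9.23 in ON-BC. For all 3 genes the 3 bipolar populations did not overlap. In rods and blue cones none of the 3 exceeded 4.44 in any library. Cacng8, the hippocampal TARP, had 20 reads in the 9 bipolar libraries together, with values of 0 to 6.12, and none in photoreceptors, so that no order of its levels could be read.

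The type II TARPs, which alter channel gating more than trafficking, did not share this order. Cacng5 measured 226, 219 and 133 in ON-BC, 83.0, 101 and 109 in pan-BC and 12.3, 60.1 and 66.2 in OFF-BC, so that its order was the reverse, again without overlap. It was 9.03 in 1 blue cone library and 1.02 in 1 rod library, and the other 4 photoreceptor libraries held no read. Cacng7 measured 61.7, 52.5 and 62.4 in pan-BC. ON-BC held 36.1, 29.4 and 20.5 and OFF-BC 36.9, 34.8 and 27.6, rods 18.4, 27.7 and 28.1 and blue cones 9.03, 5.31 and 8.14. Every pan-BC library exceeded every other library for Cacng7, while ON-BC, OFF-BC and rods overlapped.

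**Figure D1:**
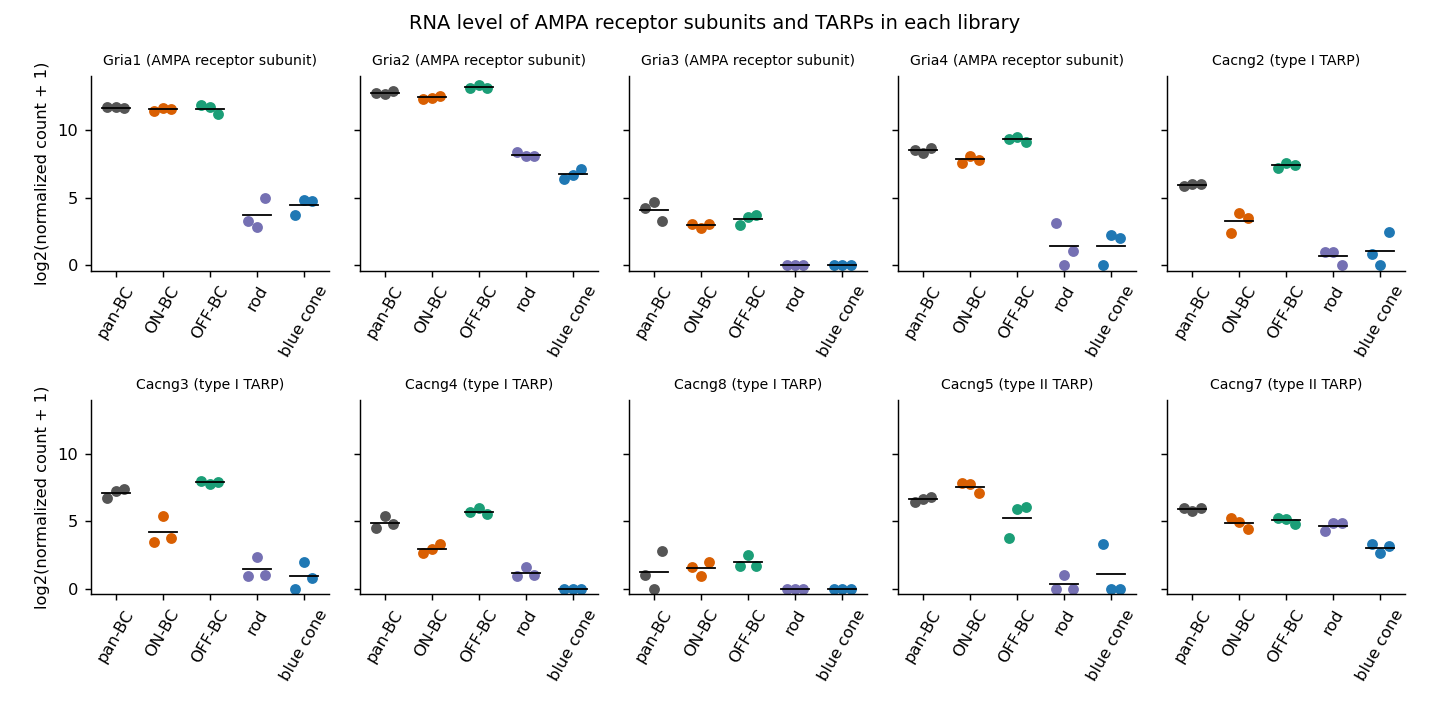
RNA level of each member in each of the 15 libraries, as log2 of the normalized count plus 1 (y axis), by population (x axis); points are libraries and black lines the mean of 3. The type I TARPs Cacng2, Cacng3 and Cacng4 lie higher in OFF-BC than in ON-BC, Cacng5 lies higher in ON-BC, and in photoreceptors Cacng7 comes closest to its bipolar level.

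The gamma subunits Cacng1 and Cacng6 resemble TARPs in sequence but do not act on AMPA receptors. Cacng1 had no read in any library, and Cacng6 had 1 read each in ON-BC and OFF-BC. Both are neighbours of members in the genome (GRCm38). On chromosome 11, minus strand, the order is Cacng1, Cacng4 at 107732357 to 107794706 and Cacng5 at 107874605 to 107915055. On chromosome 7, plus strand, Cacng7 at 3332825 to 3368221 is followed by Cacng8 at 3394042 to 3416266 and by Cacng6. Cacng4 and Cacng5, which ran in opposite orders across the bipolar populations, thus lie next to each other, and so do Cacng7 and the nearly silent Cacng8. The other members lie apart, Cacng2 on chromosome 15 at 77993623 to 78119280 (minus strand), Cacng3 on chromosome 7 at 122671744 to 122769393 (plus), Gria1 on chromosome 11 at 57011618 to 57330244 (plus), Gria2 on chromosome 3 at 80681450 to 80802835 (minus), Gria3 on chromosome X at 41400819 to 41678601 (plus) and Gria4 on chromosome 9 at 4417896 to 4796234 (minus).

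The comparison of ON-BC with OFF-BC asked whether the bipolar classes that sense glutamate by different receptors differ in this family. Each test asked whether the difference exceeded a log2 fold change of 1, that is a doubling, by limma with Benjamini-Hochberg adjustment over the 14024 genes tested, at a false discovery rate of 0.05. The fitted differences are on the scale of log2 of the normalized count plus 1, which understates the change of genes with few reads. Calls were made for 3 of the 9 tested members, all type I TARPs and all higher in OFF-BC, where 3.6% of all tested genes were called in that direction and 6.55% in either.

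Cacng2 was lower in ON-BC than in OFF-BC by a log2 difference of -4.13 (SE 0.55, adjusted p = 0.000542), the means being 9.37 ± 4.86 (SD, n = 3) for ON-BC against 166 ± 20.1 (SD, n = 3) for OFF-BC. The ratio of these means was 17.7. Cacng3 differed by -3.69 (SE 0.56, adjusted p = 0.00222), from 21.3 ± 17.3 in ON-BC to 238 ± 14.8 in OFF-BC. Cacng4 differed by -2.74 (SE 0.40, adjusted p = 0.00543), from 7.08 ± 2.05 to 52.3 ± 8.20. Each of these 3 calls was also made under all 24 alternatives tried, among them edgeR and DESeq2 on recovered reads and the removal of each library. Removing a library from outside the 2 populations compared leaves a log2 difference as it was and acts only through its SE. Without OFF-BC replicate 3 the log2 differences were -4.11, -3.67 and -2.84, with limma adjusted p of 0.00273, 0.00949 and 0.0129.

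Cacng5 was the member that pointed the other way. Its mean was 193 ± 51.7 (SD, n = 3) for ON-BC against 46.2 ± 29.5 for OFF-BC, a log2 difference of 2.32 (SE 0.76, 95% interval 0.71 to 3.92). The difference was not called (limma adjusted p = 0.507), although the libraries did not overlap. The spread of the OFF-BC libraries was wide, since replicate 1 held 12.3 and the others 60.1 and 66.2. Tested against no change instead of a doubling, the adjusted p was 0.0309, and edgeR's test against a doubling gave 0.0752. Without OFF-BC replicate 3 the log2 difference was 2.73 (limma adjusted p = 0.325), and without OFF-BC replicate 1 it was 1.56 (limma adjusted p = 1). In the OFF-BC libraries Cacng5 stood at 6.37%, 31.1% and 34.3% of its ON-BC mean, while the ON markers Grm6, Isl1 and Prkca stood at 0.481% to 6.47% of theirs and Trpm1, the channel that mGluR6 closes, at 9.49% to 13.3%.

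No receptor subunit was called between ON-BC and OFF-BC. Gria1 differed by a log2 difference of -0.07 (SE 0.40), with a 95% interval from -0.91 to 0.78 that leaves room for nearly a doubling in either direction; this SE rests on the spread in all 5 populations, and from ON-BC and OFF-BC alone it was 0.18. Gria2 differed by -0.78 (SE 0.15, 95% interval -1.09 to -0.46), short of a doubling but past the test against no change (adjusted p = 0.000745). Gria4 differed by -1.52 (SE 0.62, 95% interval -2.84 to -0.20), with a limma adjusted p of 1 against a doubling, of 0.0849 where the SE came from ON-BC and OFF-BC alone, and of 0.084 against no change. Gria3, at 20 reads in all of ON-BC and 26 in all of OFF-BC, differed by -0.46 (95% interval -1.43 to 0.51). Cacng7 differed by -0.23 (95% interval -0.92 to 0.47). Without OFF-BC replicate 3 the log2 differences were -0.29 for Gria1, -0.83 for Gria2, -0.30 for Gria3, -1.62 for Gria4 and -0.35 for Cacng7, and none was called. Over the 9 tested members the median log2 difference was -0.78, beside -0.02 over all tested genes.

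**Figure D2:**
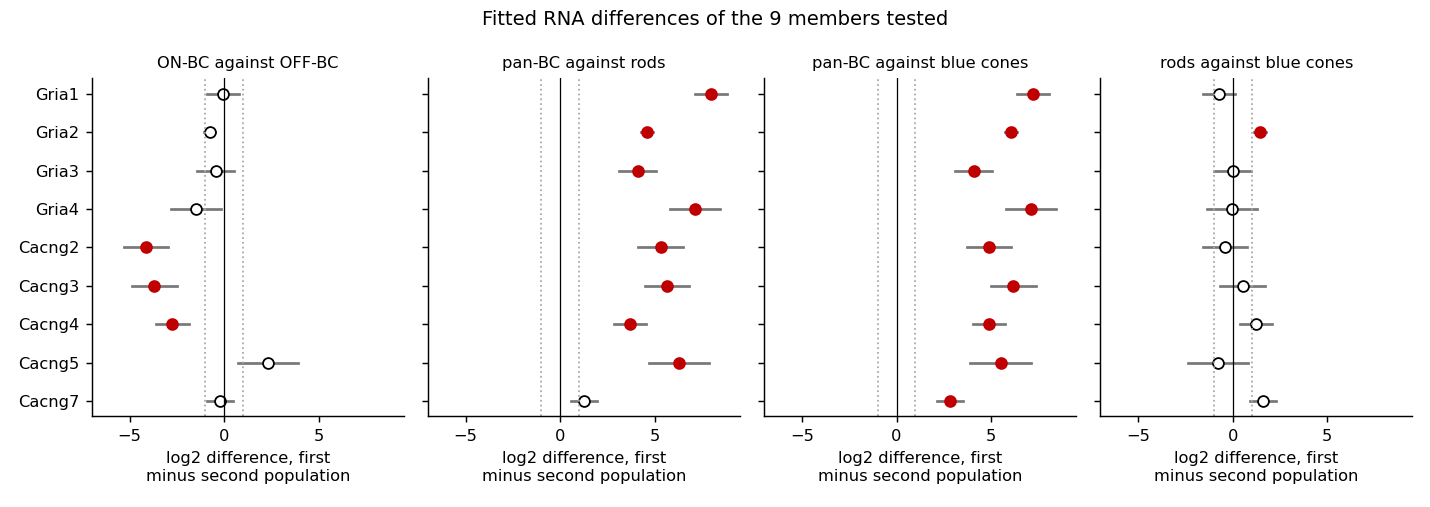
Fitted log2 differences (x axis, first minus second population named above each panel) of the 9 members tested (y axis), with 95% intervals as grey lines; filled red points were called by limma against a log2 fold change of 1 (dotted lines), open points were not. The 3 type I TARPs are called in ON-BC against OFF-BC, 8 and 9 members against rods and blue cones, and Gria2 between rods and blue cones.

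The make-up of each family was compared per length, by dividing each normalized count by the kilobases of the union of its RefSeq exons. On this scale the 4 subunits together stood at 1010 per kb in ON-BC against 1457 in OFF-BC, the 6 TARPs at 82.7 and 255. The ratio of the subunits' level to that of the TARPs was 13.0 ± 4.34 (SD, n = 3) in ON-BC and 5.72 ± 0.84 in OFF-BC, with library ranges of 10.1 to 17.9 and 4.75 to 6.25 that did not overlap. It was 7.16 ± 1.20 in pan-BC. This difference depended on the length used. Per longest coding length, a scale added after seeing the data, the ratio was 10.9 ± 3.75 in ON-BC, beside 8.47 ± 1.16 in OFF-BC, and the library ranges of 8.57 to 15.2 and 7.15 to 9.34 overlapped. Per longest transcript they did not, at 10.7 to 19.1 and 5.16 to 6.77.

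Within the TARPs the leading gene differed between ON-BC and OFF-BC. In OFF-BC Cacng3 made up 61.1% ± 4.99 (SD, n = 3) of the summed TARP level per kb, Cacng2 22.5% ± 2.23 and Cacng5 4.66% ± 2.93. In ON-BC Cacng5 made up 61.1% ± 7.41, Cacng3 15.9% ± 9.21 and Cacng2 4.09% ± 2.20. Type I TARPs together held 88.2% to 92.3% in the OFF-BC libraries and 12.5% to 32.8% in the ON-BC libraries, and pan-BC lay between at 65.9% to 72.8%. Per kb of coding sequence instead of exon the means were 83.5% in OFF-BC, 13.4% in ON-BC and 55.9% in pan-BC. The single shares moved with the length used. Per coding length Cacng3 held 44.1% and Cacng2 29.7% in OFF-BC, and Cacng5 held 75.3% and Cacng3 6.98% in ON-BC. The leading gene of each population stayed the same. These shares follow from the same values as the tests above and were not tested.

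Within the receptor subunits Gria1 and Gria2 held the larger part in all 3 bipolar populations. In OFF-BC Gria2 held 57.0% ± 5.19 (SD, n = 3) per kb of exon, Gria1 35.7% ± 5.45 and Gria4 7.25% ± 0.23. In ON-BC Gria2 held 47.7% ± 2.03, Gria1 48.6% ± 1.63 and Gria4 3.64% ± 0.43, so that the first 2 could not be ordered. The Gria2 annotation is long, at 11.3 kb of exon against 5.98 kb for Gria1. Per kb of coding sequence, which is 2.71 kb in Gria2 and 2.72 kb in Gria1, Gria2 led in ON-BC as well, with 63.3% against 34.0%. Gria3 held 0.12% in each of ON-BC and OFF-BC.

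**Figure D3:**
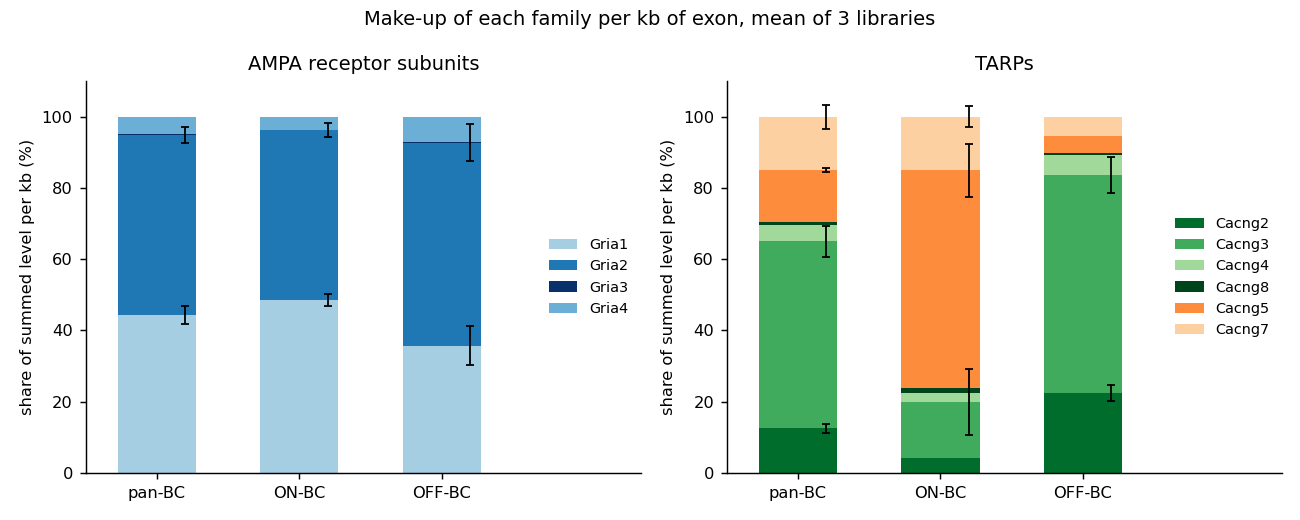
Share of each gene (y axis, percent) in the summed level per kb of exon of the 4 receptor subunits (left) and of the 6 TARPs (right) in pan-BC, ON-BC and OFF-BC (x axis); bars are means of 3 libraries, and whiskers are SDs, drawn for segments above 10%. Green type I TARPs fill most of the OFF-BC bar, at a mean of 89.8%, and orange type II TARPs most of the ON-BC bar.

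The pan-BC libraries lay between ON-BC and OFF-BC for Gria2, Gria4, Cacng2, Cacng3, Cacng4 and Cacng5, in every library. Pan-BC hold both ON and OFF cells, and the share of all genes with this order was not counted, so that it is no trait of the family. Measured from the ON-BC mean at 0% to the OFF-BC mean at 100%, the pan-BC mean stood at 38.2% for Gria2, 33.2% for Gria4, 33.3% for Cacng2, 54.6% for Cacng3 and 50.4% for Cacng4; Cacng5 lay between them in the opposite direction. The class markers Grm6 and Isl1 stood at 40.8% and 16.2%, and Grik1 and Tacr3 at 17.2% and 33.3%. Cacng7 left this pattern, with a pan-BC mean of 58.8 ± 5.55 above 28.7 ± 7.82 in ON-BC and 33.1 ± 4.89 in OFF-BC. The RNA libraries of pan-BC differed from the other bipolar libraries in genotype, and from OFF-BC in the number of sorts. Their ganglion markers summed to 313 to 320, above 140 to 246 in ON-BC and 41.4 to 78.3 in OFF-BC. Their rod markers summed to 33305 to 41852, also above both, while the sum of their amacrine markers, at 564 to 611, lay between. Gad1 and Tfap2a had their highest bipolar means in pan-BC, at 60.6 and 9.12, and the means of the other amacrine markers lay between. The part of such cells in the pan-BC values was not tested.

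The genes with the population profile most like that of a called TARP were taken by the root mean square difference of the 5 population means, centred for each gene on the log2 scale, over the 14024 tested genes. For Cacng2 they were Bcl11a, a zinc finger transcription factor, at 0.18, and Gjc1, the gap junction protein connexin 45, at 0.29. For Cacng3 they were Efs, an adaptor of Src family kinases, at 0.30, and the long noncoding RNA Rmst at 0.34. For Cacng4 they were the transporter Abcg2 at 0.29 and Syt5, a synaptotagmin, at 0.30. Bcl11a measured 101, 133 and 106 in OFF-BC, 9.29, 2.94 and 4.10 in ON-BC, and 0 in all 6 photoreceptor libraries. Among the members themselves the profiles nearest to each other were those of Cacng2 and Cacng3, at 0.45.

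Other genes that build, carry or anchor AMPA receptors were read from a list of 32 genes. Of the 30 tested, 3 were called higher in OFF-BC and 1 higher in ON-BC, beside 3.6% and 2.95% of all tested genes, and the median log2 difference was -0.01. Shisa6, which encodes another auxiliary subunit of the receptor, measured 27.9, 80.5 and 51.9 in OFF-BC, against 1.03, 0.98 and 4.10 in ON-BC, a log2 difference of -4.19 (SE 0.60, adjusted p = 0.000964). Nptx1 and Nptx2 encode neuronal pentraxins, secreted proteins that cluster AMPA receptors. The mean of Nptx1 was 61.0 ± 21.4 (SD, n = 3) for ON-BC against 300.5 ± 68.4 for OFF-BC, a log2 difference of -2.32 (SE 0.30, limma adjusted p = 0.00549). Nptx2 averaged 41.6 ± 14.3 and 269 ± 27.9, a difference of -2.71 (SE 0.35, limma adjusted p = 0.00194). Adarb2, a relative of the enzyme that edits Gria2 RNA with no known editing activity of its own, measured 552, 579 and 579 in ON-BC, against 16.8, 19.2 and 39.7 in OFF-BC, a difference of 4.54 (SE 0.57, adjusted p = 0.000222). No library of one class reached the other for any of these 4 genes. The 3 genes higher in OFF-BC were also present in blue cones, with means of 50.5 for Shisa6, 504 for Nptx1 and 117 for Nptx2. Adarb2 averaged 33.7 there. The part of cone RNA in these OFF-BC values was not tested. Without OFF-BC replicate 3 the count of called genes in the list was again 4.

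The comparison of pan-BC with photoreceptors asked which of these genes mark the receiving side of the synapse. Against rods 8 of the 9 tested members were called, all higher in pan-BC, where 27.8% of all tested genes were called in that direction. Against blue cones all 9 were called higher in pan-BC, beside 22.7% of all tested genes. The medians over the 9 members were log2 differences of 5.30 against rods and 5.51 against blue cones, and over all tested genes 0.21 and 0.16. Both comparisons use the same pan-BC libraries.

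Gria1 differed by a log2 difference of 7.96 against rods (SE 0.40, adjusted p = 6.47e-11) and by 7.23 against blue cones (adjusted p = 7.31e-10). Gria2 differed by 4.59 (SE 0.15, adjusted p = 9.98e-13) and 6.04 (adjusted p = 1.25e-13). Gria4 differed by 7.12 and 7.10 (SE 0.62), with 9 reads in all rod and 9 in all blue cone libraries. Gria3 had no photoreceptor read. Taking 3 reads over the 3 libraries of a population as the most that a count of 0 allows, its pan-BC level was at least 16.9-fold higher than that of rods and at least 23.0-fold higher than that of blue cones, by counting error only.

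Among the TARPs Cacng3 differed by 5.64 against rods and 6.17 against blue cones (SE 0.56), Cacng2 by 5.30 and 4.88 (SE 0.55) and Cacng5 by 6.27 and 5.51 (SE 0.76). The photoreceptor side of these values rests on few reads, from 1 read of Cacng5 in all rod libraries to 12 in all blue cone libraries, 9.03 of the normalized count of the latter lying in replicate 1. Cacng4 differed by 3.68 against rods (SE 0.40, limma adjusted p = 1.10e-05) and had no read in blue cones, which made it at least 39.8-fold higher in pan-BC. All 17 of these calls were also made under each of the 24 alternatives.

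Cacng7 was the member not called against rods, with a log2 difference of 1.24 (SE 0.33, 95% interval 0.55 to 1.93, limma adjusted p = 0.454), although the libraries did not overlap. It averaged 24.7 ± 5.46 (SD, n = 3) in rods, 42.0% of its pan-BC level, and against no change its adjusted p was 0.00235. Against blue cones it differed by 2.84 (adjusted p = 9.01e-05). As a share of pan-BC the other members stood at 0 to 4.58% in rods, led by Cacng4, on 4 reads, and by Gria2 at 4.16%. The bipolar genes Grm6 and Isl1 stood in rods at 0.841% and 0.407% of their pan-BC level, and in blue cones at 1.53% and 0.701%. Other bipolar markers spread more widely. Tacr3 stood at 0.0509% in rods and 0.523% in blue cones, Grik1 at 0.842% and 5.44%, and Prkca at 18.7% and 2.98%. Gria1 stood at 0.468% in rods and 0.676% in blue cones, within the wide range of these bipolar genes, and Gria2 at 1.53% in blue cones. The part of bipolar RNA in the photoreceptor values was not tested.

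Between rods and blue cones 1 of the 9 tested members was called. Gria2 was higher in rods, where it averaged 288 ± 37.4 (SD, n = 3) against 106 ± 25.9, by a log2 difference of 1.45 (SE 0.15, adjusted p = 0.0261), and 4.63% of all tested genes were called higher in rods. This call did not hold in 6 of the 24 alternatives. Without blue cone replicate 1, blue cone replicate 2 or rod replicate 1 the limma adjusted p was 0.14, 0.085 and 0.139, and with the libraries of the 2 populations alone it was 0.226. The libraries did not overlap. Cacng7 differed by 1.60 (SE 0.33, 95% interval 0.91 to 2.29, limma adjusted p = 0.21), from 24.7 ± 5.46 in rods to 7.49 ± 1.94 in blue cones, also without overlap.

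In the list of 32 pathway genes, 17 of 30 tested were called in the direction of pan-BC against rods and 2 in that of rods, where 27.8% and 15.8% of all tested genes were called. Against blue cones the counts were 13 and 1, beside 22.7% and 13.7% of all tested genes. Frrs1l, an assembly factor of AMPA receptors in the endoplasmic reticulum, led both comparisons, with log2 differences of 8.32 (SE 0.44) and 7.36. It measured 859, 910 and 991 in pan-BC and at most 6.02 in any photoreceptor library. Nsg1, an endosomal protein that carries AMPA receptors, differed by 7.84 and 6.11 (SE 0.36), Adarb2 by 7.69 against rods and Shisa9 by 6.29 against blue cones. Between rods and blue cones 7 of 30 were called higher in blue cones and 1 in rods, beside 11.3% and 4.63% of all tested genes. The leading genes were Olfm1, a secreted protein found in AMPA receptor complexes, at a log2 difference of -6.92 (SE 0.13), Nptx2 at -6.14 (SE 0.35) and Nptx1 at -5.90 (SE 0.30). Nptx1 measured 456, 454 and 602 in blue cones, above all bipolar libraries.

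Accessibility was measured in regions of 201 bases taken from the union of ATAC-seq peaks, 110715 in all. For 67 of them the nearest transcription start site (TSS) was that of a member, 66 of which were tested. Gria1 had 16, Gria2 and Cacng5 11 each, Cacng3 10, Gria3 6, Cacng7 5, Cacng2 and Gria4 3 each, Cacng4 2 and Cacng8 none. Nearness does not show that a region acts on the gene. The ATAC-seq libraries, 2 per population, held 4176776 to 12345845 reads in these regions.

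Between ON-BC and OFF-BC 6 of the 66 regions were called. Of these, 5 were more accessible in ON-BC, where 4.58% of all 108448 tested regions were called in that direction, and 1 in OFF-BC, beside 2.8%. With TMM scaling, which moved the median log2 difference over all regions from 0.15 to -0.07, calls over all regions split into 3712 higher in ON-BC and 3482 higher in OFF-BC instead of 4972 and 3038. Other settings moved the split the other way, with 3775 and 1016 by DESeq2 and 7141 and 2266 with a pseudocount of 4. The members' split was 5 and 1 with TMM scaling, 4 and 1 by DESeq2 and 8 and 1 with a pseudocount of 4.

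The region higher in OFF-BC lay in an intron of Cacng2, 24.3 kb downstream of the TSS, at chr15:78094854-78095054. It measured 18.9 and 18.5 normalized counts in OFF-BC and 0 and 0 in ON-BC, a log2 difference of -4.30 (SE 0.62, adjusted p = 0.00171). It measured 44.0 and 49.1 in blue cones, 17.7 and 23.9 in green cones, 3.12 and 2.71 in rods and 6.40 and 3.42 in pan-BC. Cacng2 RNA was thus highest in OFF-BC and near 0 in blue cones, while this region was most accessible in blue cones, where it lay above rods (log2 difference of rods minus blue cones -3.60, SE 0.62, limma adjusted p = 0.00505).

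Of the 5 regions higher in ON-BC, 4 lay in introns of Gria3, the subunit with the lowest RNA level. The region 57.2 kb from the TSS, at chrX:41458509-41458709, measured 46.3 and 26.4 in ON-BC and 0 in both OFF-BC libraries, a log2 difference of 5.17 (SE 0.77, adjusted p = 0.00153). The region at 36.3 kb measured 40.3 and 27.8 in ON-BC and 0 and 1.95 in OFF-BC, a difference of 4.33 (adjusted p = 0.00574). Those at 92.5 kb and 5.16 kb differed by 3.80 and 3.46 (limma adjusted p = 0.0153 and 0.0216). All 4 were at 0 in both rod and both blue cone libraries and at 17.6 to 59.9 in pan-BC. The promoter region of Gria3 measured 67.2 and 61.5 in ON-BC and 21.6 and 13.6 in OFF-BC and was not called (difference 1.85, adjusted p = 0.517). The RNA of Gria3 did not follow these regions, at 5.88 to 7.22 in ON-BC and 6.71 to 12.1 in OFF-BC. The calls at 57.2 kb and in Cacng2 held in all 19 alternatives. Among these, too, removals of a library from outside ON-BC and OFF-BC acted only through the SE. The call at 5.16 kb was lost in 5 of them, by DESeq2 and without ON-BC replicate 1, ON-BC replicate 2, OFF-BC replicate 1 or OFF-BC replicate 2, with adjusted p up to 0.105. The call at 36.3 kb was lost by DESeq2 and without OFF-BC replicate 1, and that at 92.5 kb without ON-BC replicate 2 or OFF-BC replicate 2, with adjusted p up to 0.133.

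The fifth region higher in ON-BC lay downstream of Gria2, 185 kb from its TSS, at chr3:80617509-80617709. ON-BC held 71.7 and 46.9, pan-BC 24.0 and 52.5, OFF-BC 2.69 and 0, and photoreceptors at most 1.54. The log2 difference between ON-BC and OFF-BC was 4.94 (SE 0.84, adjusted p = 0.00394), and the adjusted p was 0.0509 without OFF-BC replicate 2. Gria2 RNA, by contrast, was lower in ON-BC than in OFF-BC.

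**Figure D4:**
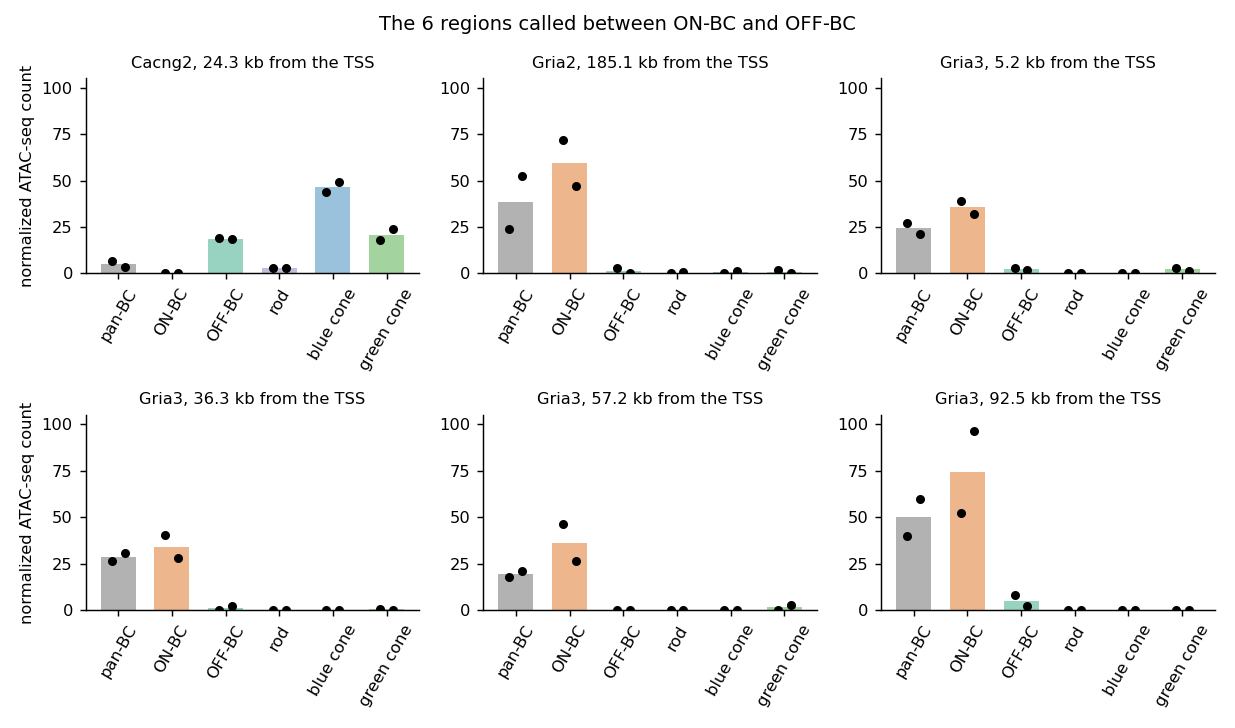
Normalized ATAC-seq count (y axis) of the 6 regions called between ON-BC and OFF-BC, in 6 populations (x axis); points are the 2 libraries and bars their mean. The Cacng2 region is at 0 in ON-BC and highest in blue cones, and the Gria2 and Gria3 regions are high in ON-BC and pan-BC and near 0 elsewhere.

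The sequences of 3 of these regions are shown because they carry the differences between the classes that held in the most alternatives. They were read from GRCm38, plus strand, and capitals mark matches to 4 motifs on either strand. The first, TAATCC, is the K50 homeodomain site of CRX and OTX2. The next, TAATTA, is a Q50 homeodomain site. The others are E-boxes, 1 spelled CAGATG and the other CAGCTG in full.
Cacng2 intron, chr15:78094854-78095054: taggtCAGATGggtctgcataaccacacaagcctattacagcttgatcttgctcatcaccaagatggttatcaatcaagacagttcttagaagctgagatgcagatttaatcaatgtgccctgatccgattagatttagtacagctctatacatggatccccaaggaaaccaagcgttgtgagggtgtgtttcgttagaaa
Gria3 intron, chrX:41458509-41458709: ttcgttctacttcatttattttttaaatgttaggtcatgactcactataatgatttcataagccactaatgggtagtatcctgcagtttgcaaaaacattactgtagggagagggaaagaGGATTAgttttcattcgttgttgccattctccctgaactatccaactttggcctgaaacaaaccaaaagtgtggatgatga
Gria2 downstream, chr3:80617509-80617709: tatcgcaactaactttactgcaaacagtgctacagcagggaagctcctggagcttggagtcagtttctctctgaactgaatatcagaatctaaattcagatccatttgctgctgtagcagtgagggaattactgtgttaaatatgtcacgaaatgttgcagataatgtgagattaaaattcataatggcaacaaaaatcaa

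The Cacng2 region held 1 CAGATG and none of the other 3 motifs, the Gria3 region 1 TAATCC on the minus strand, and the Gria2 region no match. TAATCC was also found once in the Gria3 regions at 36.3 kb and 5.16 kb, and CAGCTG once at 92.5 kb. Over all 110715 regions, 21.8% held TAATCC, 5.22% TAATTA, 22.4% CAGATG and 18.1% CAGCTG. Over the 67 regions of members the shares were 22.4%, 4.48%, 23.9% and 19.4%, close to those of all regions. A match is a description of letters and no evidence of binding.

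Of 10 Cacng3 regions none was called, and the median log2 difference was -0.63. A region 3.66 kb upstream of the Cacng3 TSS measured 14.9 and 8.78 in ON-BC and 48.5 and 50.6 in OFF-BC, a log2 difference of -2.02 (limma adjusted p = 0.211). A region 110.7 kb downstream of that TSS had the opposite sign, with 14.9 and 20.5 in ON-BC and 0 and 1.95 in OFF-BC, a difference of 3.43 (limma adjusted p = 0.0766). Over the 10 tested regions of Cacng5 the median was -0.06. A region in an exon of Cacng5, 35.0 kb from the TSS, measured 137 and 151 in ON-BC and 10.8 and 22.4 in OFF-BC, a difference of 3.13 (limma adjusted p = 0.121), and 0 in both rod libraries. These 3 regions were chosen after their values were seen. None of the 8 promoter regions of members was called between ON-BC and OFF-BC, and of all promoter regions 0.375% were called higher in ON-BC and 0.889% higher in OFF-BC.

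**Figure D5:**
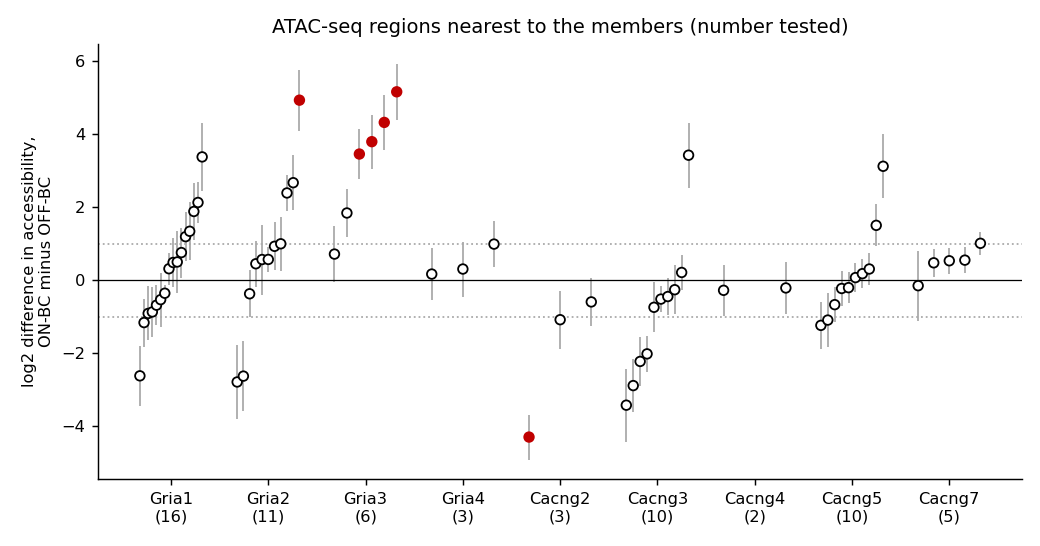
Log2 difference in accessibility between ON-BC and OFF-BC (y axis) of each tested region, grouped by the member with the nearest TSS (x axis, number of regions in brackets); points are fitted differences with SEs, and filled red points were called. In total 4 of 6 Gria3 regions and 1 Gria2 region are called higher in ON-BC and 1 Cacng2 region higher in OFF-BC.

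Against rods, of the 66 tested regions 40 were called more accessible in pan-BC than in rods, with 2 less so, beside 40.3% and 11.2% of all tested regions. Over all regions the median log2 difference was 1.16, and it was 3.31 over those of members. By gene, the regions called higher in pan-BC were 13 of 16 at Gria1, 10 of 11 at Gria2, 6 of 6 at Gria3 and 3 of 3 at Gria4. At the TARPs they were 0 of 3 for Cacng2, 3 of 10 for Cacng3, 2 of 2 for Cacng4, 3 of 10 for Cacng5 and 0 of 5 for Cacng7. Against blue cones 32 regions were called more accessible in pan-BC and 5 less, beside 28.8% and 7.13% of all.

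The called region with the largest excess over rods gives the scale at the 7 genes that had one, and none was called at Cacng2 or Cacng7. It was the Cacng5 exonic region with a log2 difference of 7.30 (SE 0.87), the Gria4 promoter with 6.48 (SE 0.72), an intronic Gria1 region 3.39 kb from the TSS with 5.76 (SE 0.56), the Gria3 region at 92.5 kb with 5.64 (SE 0.74) and a region 430 kb from the Gria2 TSS with 5.53 (SE 0.65). For Cacng4 and Cacng3 it was a region 18.3 kb and 74.8 kb upstream, with 4.02 and 3.95. The Gria4 promoter measured 112 and 180 in pan-BC but 1.56 and 0 in rods. Against blue cones the largest was an intronic Gria2 region at 89.4 kb with 6.72 (SE 0.50), at 163 and 262 in pan-BC and 0 and 2.89 in blue cones. Against blue cones the Cacng2 intronic region and a region 12.3 kb upstream of Cacng3 were lower in pan-BC, by -3.05 and -3.50 on the log2 scale, although the RNA of both genes was higher there.

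Promoters of 4 members were more accessible in pan-BC than in rods, those of Gria2, Gria3, Gria4 and Cacng4, which made 4 of 8 promoter regions beside 17.5% of all promoter regions. Of the members with regions, Gria1 and Cacng3 had none inside the promoter window. A Gria1 region 134 bp downstream of the TSS, just outside it, measured 41.6 and 72.4 in pan-BC and 1.56 and 1.36 in rods. It was called higher in pan-BC (log2 difference 4.51, limma adjusted p = 2.18e-06). The 2 promoter regions of Cacng7 measured 33.9 to 71.2 in rods, 58.4 to 129 in pan-BC and 10.4 to 34.7 in blue cones. They were called higher in pan-BC than in blue cones and were not called against rods. The promoter region of Cacng5 measured 15.6 and 14.9 in rods and 36.3 and 47.7 in blue cones, beside 18.4 and 26.2 in pan-BC, while its RNA was nearly absent from photoreceptors.

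Between rods and blue cones 3 of the 66 regions were called more accessible in rods and 10 in blue cones, beside 1.46% and 8.56% of all tested regions. Of these 10, 7 were at Gria1, and the 1 with the largest difference, 260 kb upstream of the TSS, measured 175 and 173 in blue cones, 3.12 and 2.71 in rods and 173 and 176 in pan-BC, with a log2 difference of -5.48 between rods and blue cones (SE 0.22, adjusted p = 2.64e-10). Gria1 RNA was low in both. At Gria2 2 regions were called more accessible in rods, led by an intronic region 39.7 kb from the TSS at chr3:80762916-80763116 with 42.1 and 47.4 in rods, 0 in both blue cone libraries and 2.85 to 8.08 in the bipolar libraries. The log2 difference from blue cones was 5.51 (SE 0.64, adjusted p = 5.03e-05), and pan-BC lay below rods by -3.51. Gria2 was the member whose RNA was called higher in rods than in blue cones. The third region, 1.14 kb upstream of the TSS of Cacng7, measured 164 and 161 in rods and 15.5 and 34.7 in blue cones, a difference of 2.75 (SE 0.31, adjusted p = 0.000475).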

How the data were processed

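RNA-seq and ATAC-seq of sorted retinal cells were analysed from 2 deposited tables. The authors aligned RNA-seq reads to GRCm38 with STAR, took counts per RefSeq gene by HTSeq, and counted ATAC-seq reads in the union of their MACS2 peaks. The deposited signal values are read counts after division by a size factor that the authors gave each library. All 230384 gene values above 0 (100.0%) and all 1212862 region values (100.0%) came out as whole reads (tolerance 0.01) once each library's smallest step was found, and these reads were recovered. Peak lists were not used here.

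The filter on low values was filterByExpr of edgeR (14024 of 24062 and 108448 of 110715). limma 3.58.1 was fitted to log2(value + 1) over all libraries of an assay with 1 level per population, and each contrast was tested by treat (trended prior) for a log2 fold change beyond 1. Benjamini-Hochberg adjustment ran over all features tested, and adjusted p-values below 0.05 were called. edgeR 4.0.16 and DESeq2 1.42.0 on recovered reads, pseudocounts of 0.5 (RNA-seq) and 4, TMM scaling, no filter, a test against no change, populations alone, a replicate block and the removal of each library were alternatives. The 2 other length scales were added after seeing the data. Intervals of 95% come from the same fit, and the allowance of 3 reads for a count of 0 covers counting error only. Regions were assigned to the nearest RefSeq TSS, and promoters ran from 1000 bp upstream to 100 bp downstream. Exons of Cacng8 share 91 bp with the annotated gene Gm23450 on the same strand.

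The values of 1 bipolar marker gene are not reported here. The members and lists were chosen with earlier results of these data known. All members were named, with the listed AMPA receptor genes called between ON-BC and OFF-BC, the 3 largest called in each other contrast, the 2 genes most like each TARP called between ON-BC and OFF-BC, and the called region with the largest change at each member. Marker lists for horizontal, ganglion, Müller glial, microglial and vessel cells gave 1 call among the 15 genes tested between ON-BC and OFF-BC, a ganglion marker higher in ON-BC.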

Additional observations from a re-analysis of the deposited data

Results flagged for a closer look

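A pair of regions at members carried signal in green cones, sorted from Opn1mw-GFP mice and part of no comparison of the report, above every library of the 5 other populations. The region 11886 bp upstream of the Cacng7 TSS, at chr7:3320839-3321039, measured 11.5 and 35.2 normalized counts in the 2 green cone libraries and at most 4.80 elsewhere. The region 455040 bp upstream of the Gria1 TSS, at chr11:56556478-56556678, measured 18.3 and 20.0 in green cones and at most 6.48 elsewhere. How many of all regions met the same rule was not counted, so that the pair is no result about the members. The samples hold no RNA-seq library of green cones, so that the RNA of these genes there could not be read.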

How the results depend on the processing

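The counts of members called in RNA kept within 1.5 times of those reported except under the following settings. Tested against no change, 5 members were called between ON-BC and OFF-BC instead of 3 and 3 between rods and blue cones instead of 1. The call between rods and blue cones fell to 0 by DESeq2, without a filter and with the 2 populations alone. Leaving out 1 library gave 3 to 3 calls between ON-BC and OFF-BC, 8 to 8 against rods, 9 to 9 against blue cones and 0 to 1 between rods and blue cones, where Gria2 is the gene. Of the ATAC-seq regions, edgeR called 11 for ON-BC against OFF-BC (6 as reported), the test against no change called 19, and leaving out 1 library gave 3 to 9, with 3 without OFF-BC replicate 2. Between rods and blue cones (13 called) DESeq2 called 8, a pseudocount of 4 gave 6, the test against no change 31 and removal of a library 7 to 14, with 7 without blue cone replicate 1. Taking regions by transcribed span plus 5000 bp upstream gave 27 against rods (42 by nearest TSS) and 7 between rods and blue cones. The log2 difference of Gria1 between ON-BC and OFF-BC, -0.07, ran from -0.29 to 0.082 as single libraries were left out, above 0 without ON-BC replicate 1, OFF-BC replicate 1 or OFF-BC replicate 2. Over all regions edgeR called 12927 and DESeq2 4791 between ON-BC and OFF-BC, beside 8010. The causes were not tested.

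Same-numbered ON-BC and OFF-BC libraries share a postnatal day in the labels, but no label ties them to the same animals, and their deviations correlated at -0.08, 0.22 and -0.06 over tested genes, so that the numbers were not treated as pairs. With the replicate block 3, 8, 9 and 1 members and 6, 42, 37 and 13 regions were called in the 4 comparisons, as without it. Depth limits Gria3, Cacng8 and the photoreceptor levels, which rest on few reads, and 2 ATAC-seq libraries per population limit the calls for regions.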

Other observations

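The genes whose population profiles lay nearest to that of Gria1 among the 14024 tested genes were Frrs1l, the AMPA receptor assembly factor, and Ppp2r2c, a regulatory subunit of a protein phosphatase, both at a root mean square difference of 0.13 on the log2 scale; this was looked at after the values were seen. The 5 population means are those of the report and share its libraries, and no test was run. For Gria4 the nearest gene was Lhfpl5 at 0.17, for Cacng5 Thy1 at 0.30 and for Cacng7 Zfp369 at 0.16.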
